A study of Mus musculus with 2 samples.

Results

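CXC chemokine ligands are small secreted proteins that attract leukocytes, and 8 of them (Cxcl1, Cxcl2, Pf4, Cxcl16, Cxcl14, Cxcl10, Cxcl9 and Cxcl13) were followed across the immune cells of the mouse dorsal root ganglion (DRG). They were chosen by name out of 16819 gene symbols in the deposited matrix, and all 8 had UMIs (unique molecular identifiers, the counted transcripts) in it. Cells positive for CD45, the surface marker of leukocytes, were sorted by the authors from enzymatically digested DRGs of naive WT BALB/cAnNRj mice, marked per animal with hashtag antibodies and run in 1 lane of the 10x 3′ v3 assay. No animal was treated, so the comparisons are between cell types and between classes of macrophages within the same mice. The deposited cells of the smaller matrix came from 3 male mice (481, 772 and 1415 cells in mouse 1, 2 and 3), and the cells of 3 female mice were taken from the larger deposited matrix of the same lane and are given beside them. For the age of the mice, the study's methods give a lower bound only.

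Cells were grouped by fixed marker genes and not by clustering. Macrophages had at least 0.5% of their UMIs in C1qa, C1qb and C1qc (1442 cells, of which mouse 1, 2 and 3 gave 182, 511 and 749), neutrophils at least 5% in S100a8 and S100a9 (272 cells), B cells at least 4 UMIs of Cd79a and Cd79b (161 cells) and T cells at least 2 UMIs of Cd3d, Cd3e and Cd3g (76 cells). Of the 390 cells that met no rule, 147 carried at least 5 UMIs of listed monocyte markers, 103 at least 2 of dendritic cell markers and 29 at least 2 of NK cell markers. Macrophage markers outside the rule (Csf1r, Cx3cr1, Fcgr1, Adgre1 and Mertk) summed to 2201 to 2385 CPM (counts per 1000000 UMIs of a mouse's cell group) in macrophages and to 13.3 to 90.7 in neutrophils, B cells and T cells, and the markers of those 3 types were likewise highest in their own group. The monocyte label was borne out only in part. In the 147 cells with monocyte markers, mast cell and basophil genes reached 5887 CPM in mouse 1 and fibroblast genes 2517 and 1968 CPM in mouse 2 and 3, so these cells are called by their markers. A further 283 cells met the neutrophil and the T cell rule through Cd3d (435 CPM), with Cd3e and Trac at 0 and Ly6g at 2361 CPM, and 34 met the macrophage and the T cell rule with Trac at 0. Both sets are described apart from the groups above. The median depth was 8581.5 UMIs a cell in macrophages, 3635.5 in neutrophils, 3410 in B cells, 4757.5 in T cells, 11152 in cells with monocyte markers and 13814 in cells with dendritic markers.

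As background, CXC ligands are named after the spacing of their first cysteines and act through receptors of the CXCR family. Cxcl1 and Cxcl2 attract neutrophils through Cxcr2 and are rapidly transcribed under NF-kB, a transcription factor of Toll-like receptor and interleukin 1 signaling. Cxcl9 and Cxcl10 are induced by interferons and attract T and NK cells through Cxcr3, Cxcl13 attracts B cells through Cxcr5, and Cxcl16 is a membrane-anchored ligand of Cxcr6 that proteases release. Cxcl14 is a conserved and broadly expressed ligand, and Pf4 (Cxcl4) is best known from platelet granules but is also transcribed by many tissue macrophages. In sensory ganglia, macrophages lie beside neurons, satellite glia and vessels, where their chemokines can draw other leukocytes in.

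In the annotation GENCODE M21 (build GRCm38, the mm10 of the labels), 6 of the 8 ligands lie on chromosome 5. Pf4 (ENSMUSG00000029373, chr5:90772435-90773383), Cxcl1 (ENSMUSG00000029380, chr5:90891241-90893115) and Cxcl2 (ENSMUSG00000058427, chr5:90903871-90905938) stand on the plus strand within 134 kb. Cxcl9 (ENSMUSG00000029417, chr5:92321347-92328079) and Cxcl10 (ENSMUSG00000034855, chr5:92346638-92348889) stand on the minus strand within 27.5 kb, and Cxcl13 (ENSMUSG00000023078, chr5:95956951-95961068) on the plus strand. Cxcl16 (ENSMUSG00000018920, chr11:70453983-70459984) and Cxcl14 (ENSMUSG00000021508, chr13:56288643-56296551) are on the minus strand of other chromosomes. Cut into stretches of 50 bases, 5.84% of the transcript sequence of Cxcl2 recurred in another CXC ligand, and none of that of the other 7 ligands did. The stretches were counted over whole transcripts. Whether the shared ones of Cxcl2 lie near the 3′ end, where UMIs are counted, was not checked.

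Promoters are printed for 4 ligands because the neutrophil attractants Cxcl1 and Cxcl2 shared a stretch, whereas the interferon-induced neighbors Cxcl10 and Cxcl9 differed. RefSeq promoters of GRCm38.p6 were found for 7 of the 8 ligands (all but Cxcl16) and were read from 250 to 31 bases before the RefSeq start. For some ligands, Cxcl2 among them, this start is not the GENCODE start given above. Capitals mark matches, on either strand, to GGGA and TTCC spaced by any 2 bases (a form of the NF-kB site) and to GAAA and GAAA spaced by any 2 bases (a form of the interferon-stimulated response element). Cxcl1 (chr5:90890995-90891214, plus strand) and Cxcl2 (chr5:90903649-90903868, plus strand) held the same 11 bases, which are 2 overlapping NF-kB matches with 1 on each strand. Cxcl10 (chr5:92348920-92349139, minus strand) held both motifs and Cxcl9 (chr5:92328110-92328329, minus strand) neither in this window.
Cxcl1: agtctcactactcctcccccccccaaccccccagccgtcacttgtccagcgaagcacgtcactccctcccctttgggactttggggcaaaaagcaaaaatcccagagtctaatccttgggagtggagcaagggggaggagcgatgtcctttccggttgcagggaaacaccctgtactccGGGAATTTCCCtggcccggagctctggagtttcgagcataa
Cxcl2: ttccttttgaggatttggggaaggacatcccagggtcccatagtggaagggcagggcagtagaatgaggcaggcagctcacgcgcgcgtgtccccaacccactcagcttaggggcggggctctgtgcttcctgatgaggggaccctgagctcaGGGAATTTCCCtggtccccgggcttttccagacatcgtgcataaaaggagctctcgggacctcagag
Cxcl10: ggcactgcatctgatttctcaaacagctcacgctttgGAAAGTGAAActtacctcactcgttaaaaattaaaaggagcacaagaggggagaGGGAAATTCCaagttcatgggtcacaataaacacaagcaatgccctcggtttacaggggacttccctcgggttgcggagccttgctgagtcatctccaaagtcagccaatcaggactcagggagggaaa
Cxcl9: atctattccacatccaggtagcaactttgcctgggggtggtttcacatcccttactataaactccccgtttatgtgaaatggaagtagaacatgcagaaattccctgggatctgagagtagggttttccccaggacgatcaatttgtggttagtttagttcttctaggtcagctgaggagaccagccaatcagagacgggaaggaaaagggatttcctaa
Among 32851 promoters of the same length, 1.04% held the NF-kB form and 2.63% the interferon form. Cxcl14 held the interferon form, and Cxcl13 and Pf4 held neither. A match describes letters only and was not linked to the expression values.

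Across the 4 marker-defined types, macrophages carried the most transcript of all 8 ligands by pooled CPM, but the ligands differed in how far other cells shared them. Pf4 was carried almost entirely by macrophages, and Cxcl14, a low transcript, mostly. In cells with dendritic markers Cxcl14 was at 33.9%, 0% and 4.86% of the macrophage level in the male mice (7 UMIs). In the female mice it was at 9.62%, 8.72% and 15.8%. Cxcl1 was carried mostly by macrophages, with cells with monocyte markers at a mean of 10.8% of the macrophage level. Cxcl2 was shared with neutrophils and cells with monocyte markers, and Cxcl16 with cells with dendritic markers. Cxcl10 was concentrated in few macrophages, and Cxcl9 and Cxcl13 in still fewer, with more Cxcl9 UMIs in 2 cells with monocyte markers (133) than in all macrophages (114). Counts come from the 3′ ends of transcripts and were not scaled to length, so levels are compared within a gene and not between genes.

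**Figure D1:**
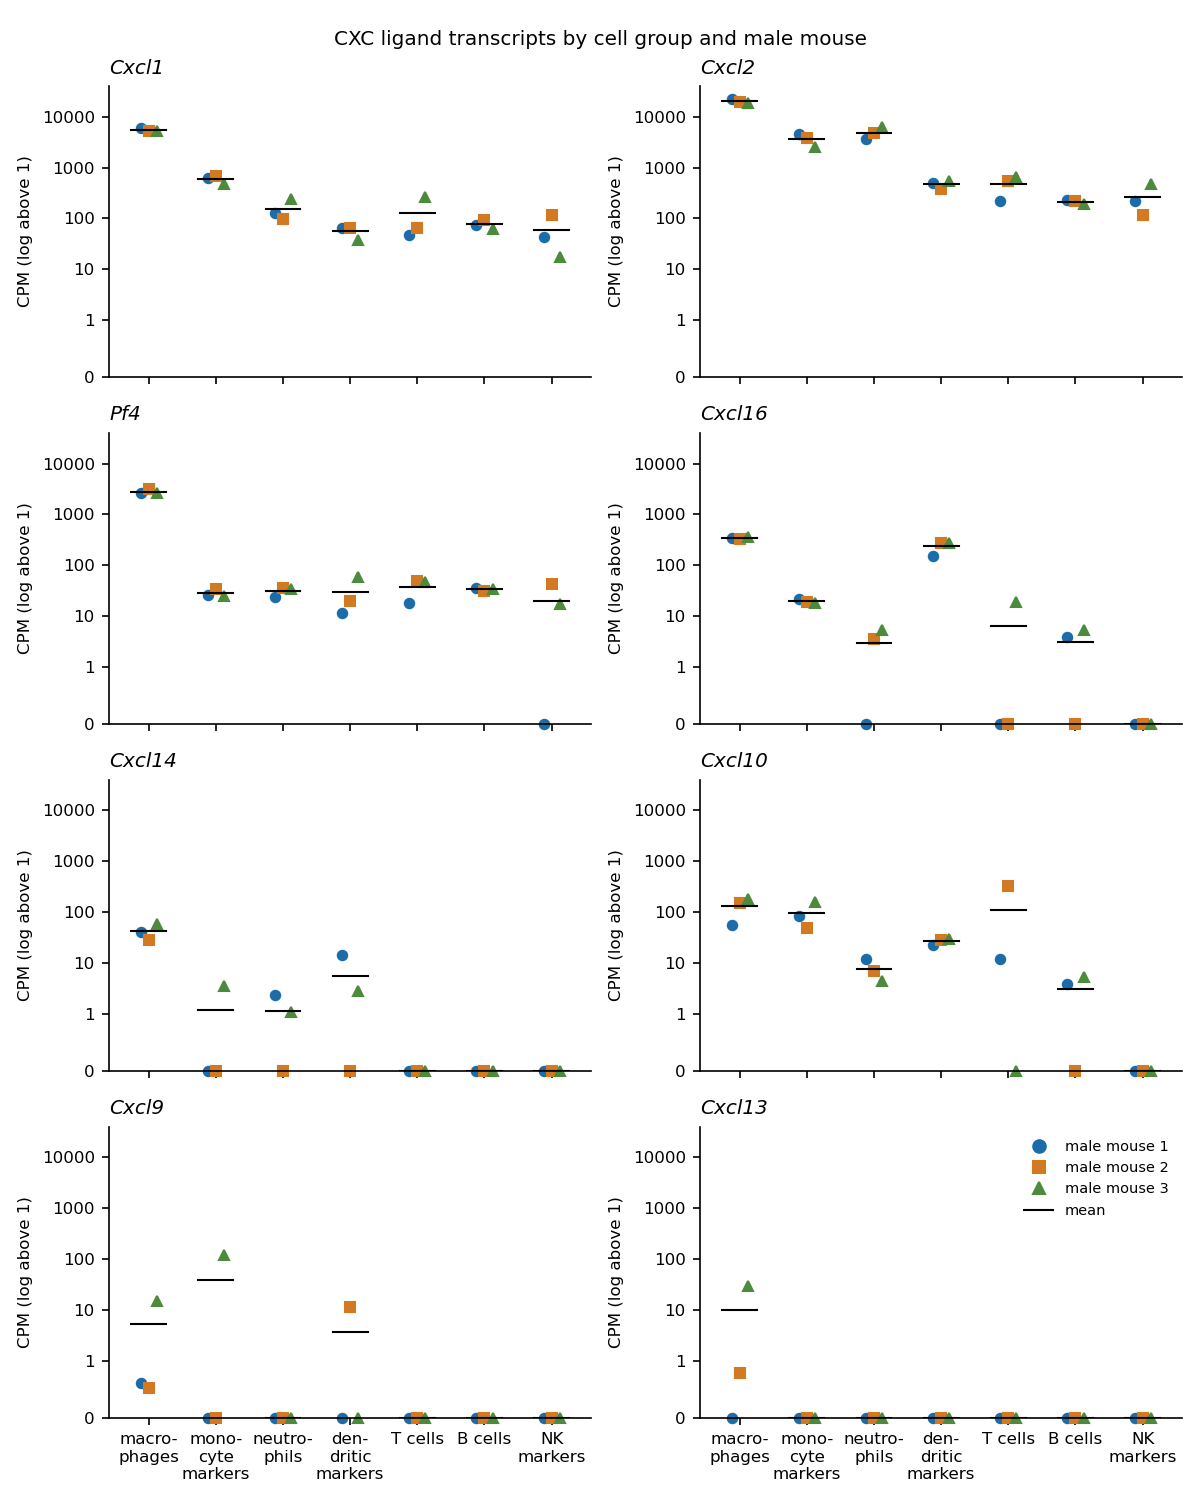
CPM of each ligand (log axis above 1, linear below) in 7 cell groups, with 1 point per male mouse and a line at the mean of 3 mice. Macrophages are highest for Cxcl1 and Pf4 in all 3 mice, Cxcl16 in cells with dendritic markers comes nearest to its level in macrophages, and Cxcl9 and Cxcl13 lie at or near 0 outside single mice.

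Differences between macrophages and the other types were tested on UMIs summed per mouse, with edgeR's quasi-likelihood test and Benjamini-Hochberg adjustment over 5499 genes. Of the 8 ligands, 5 passed the filter on low counts (Cxcl9, Cxcl13 and Cxcl14 did not), and since a gene can pass through macrophages alone, their number is a description. Higher in macrophages were 5 of these 5 against neutrophils, where 60.2% of all genes tested were called and 32.5% were higher, 5 of 5 against B cells (58% of all genes called, 30.4% higher) and 4 of 5 against T cells (44.9% of all genes called, 24.3% higher). The TMM scaling of the fit moved all log2 fold changes against B cells and T cells up by 0.59 and 0.45 relative to plain CPM, and those against neutrophils down by 0.35.

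Cxcl1 was 5975, 5317 and 5174 CPM in macrophages of mouse 1, 2 and 3 (5489 ± 428, SD, n = 3), and 91.1% of macrophages had a UMI of it (95% exact interval 89.5 to 92.5). It was 129, 95.9 and 239 CPM in neutrophils and 74.9, 92.6 and 61.1 CPM in B cells. No mouse's macrophages overlapped with any other type, and the log2 fold change was 4.69 against neutrophils (SE 0.38, edgeR adjusted p = 2.62e-09), 6.82 against B cells (SE 0.44, edgeR adjusted p = 1.64e-10) and 5.66 against T cells (SE 0.43, edgeR adjusted p = 2.58e-09). Among the rest, cells with monocyte markers came next (619, 685 and 480 CPM), above neutrophils in each mouse. Neutrophils did not overlap with B cells or with cells with dendritic markers (65.4, 65.2 and 38.2 CPM), which overlapped with each other, and T cells (48.4, 65.2 and 267 CPM) overlapped with all 3. In T cells 40 of the 68 UMIs were in 1 cell, and the 11 UMIs of the 29 cells with NK markers gave 44.3, 115 and 17.3 CPM.

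Cxcl2 reached 22226, 19830 and 18759 CPM in macrophages (20272 ± 1775, SD, n = 3), with a median of 154 UMIs a cell and a UMI in 98.1% of cells. Neutrophils were the second type, at 3595, 4800 and 6195 CPM (4864 ± 1301), and 91.9% of them had a UMI (88.0 to 94.9). B cells stayed at 229, 222 and 191 CPM. The levels did not overlap, and macrophages were higher by a log2 fold change of 1.70 against neutrophils (SE 0.26, edgeR adjusted p = 1.42e-05), 7.17 against B cells (SE 0.34, edgeR adjusted p = 3.55e-12) and 5.85 against T cells (SE 0.33, edgeR adjusted p = 5.07e-11). Cells with monocyte markers (4485, 3838 and 2532 CPM) overlapped with neutrophils. Cells with dendritic markers (489, 377 and 553 CPM) and T cells (224, 554 and 658 CPM) overlapped with each other, and 88 of the 209 T cell UMIs were in 1 cell.

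Free RNA in droplet data puts UMIs of abundant transcripts into cells that do not make them, so a share of cells with a UMI was read beside that of B cells. Thinned to 2000 UMIs a cell, which left out 30 shallower macrophages, 31 neutrophils and 10 B cells, Cxcl2 was found in 93.9% of macrophages, 81.3% of neutrophils (75.8 to 86.0), 65.8% of cells with monocyte markers, 43.2% of T cells, 40.8% of cells with dendritic markers and 38.4% of B cells (30.6 to 46.7). Neutrophils and cells with monocyte markers thus lay above the B cell share, whereas T cells and cells with dendritic markers lay within its interval. By level, cells with dendritic markers did not overlap with B cells, at 2.20%, 1.90% and 2.95% of the macrophage level of Cxcl2 against 1.03%, 1.12% and 1.02% in the male mice and at 6.55%, 3.78% and 6.52% against 0.706%, 1.16% and 1.55% in the female mice. For Cxcl1 the thinned shares were 82.9% in macrophages, 30.8% in cells with monocyte markers, 21.2% in neutrophils (16.2 to 26.9) and 11.3% in B cells (6.70 to 17.4), and those of neutrophils and B cells overlapped in their intervals. Cells with dendritic markers were at 4.85% for Cxcl1 and T cells at 16.2%. The 29 cells with NK markers were at 24.1% for Cxcl1 and 27.6% for Cxcl2. Whether the B cell share is a floor common to groups of other depth was not tested. Intervals and limits given for counts of 0 cover counting error only.

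The level relative to macrophages of the same mouse gave the same order. In B cells of the male mice, on average, Cxcl1, Cxcl2 and Pf4 stood at 1.39%, 1.06% and 1.23% of the macrophage level, a like share. Cxcl16 was at a mean of 0.858%, but from 3 B cell UMIs in all (1.13%, 0% and 1.44% in mouse 1, 2 and 3). In neutrophils Pf4 was at 0.916%, 1.14% and 1.30% (mouse 1, 2 and 3), and Cxcl2 at 16.2%, 24.2% and 33.0%. In cells with monocyte markers Pf4 was at a mean of 1.02%, and Cxcl2 at 17.7% and Cxcl1 at 10.8%. In cells with dendritic markers Pf4 was at a mean of 1.12% and Cxcl2 at 2.35%, and Cxcl16 at 44.9%, 84.8% and 74.1%. Those that stood far above the level of about 1% were Cxcl2 in neutrophils, Cxcl1 and Cxcl2 in cells with monocyte markers and Cxcl16 in cells with dendritic markers. In cells with monocyte markers, however, the 10 highest held 53.7% of the Cxcl1 UMIs, and the median was 1 UMI a cell. In these cells the female mice had Cxcl1 at 4.73%, 3.35% and 18.5% and Cxcl2 at 5.93%, 16.9% and 19.4%. Levels far above 1% were also found in the 3 female mice for Cxcl2 in neutrophils (17.2%, 24.0% and 14.8%, with Pf4 at a mean of 0.831%) and for Cxcl16 in cells with dendritic markers (43.6%, 71.7% and 74.3%, with Pf4 at a mean of 1.08%).

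**Figure D2:**
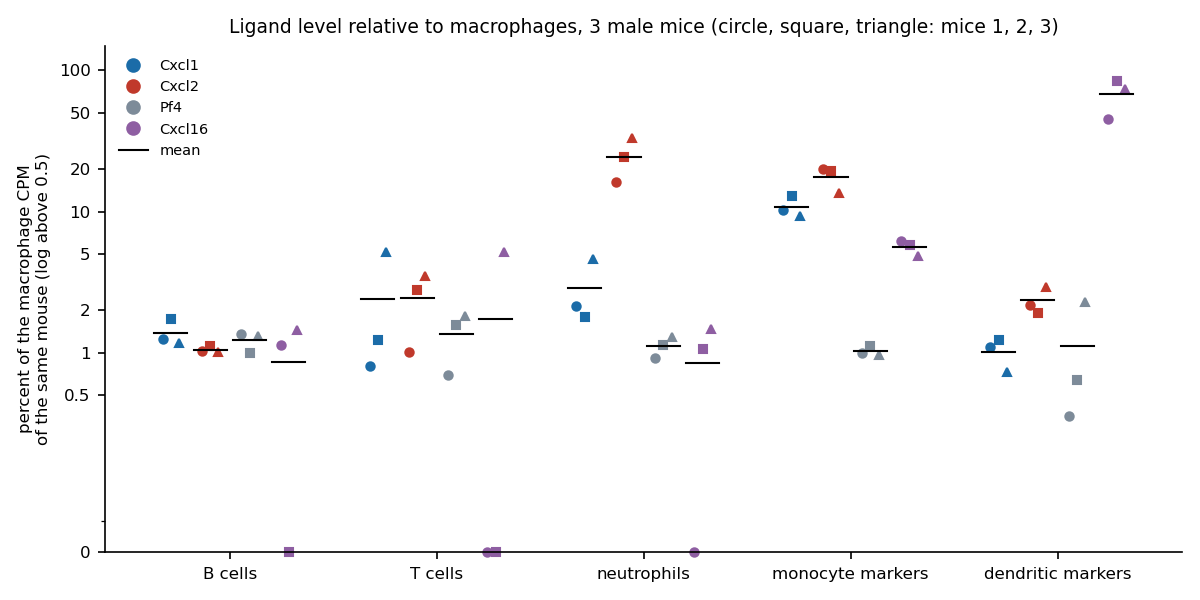
Level of Cxcl1, Cxcl2, Pf4 and Cxcl16 in 5 cell groups as a percent of the CPM in macrophages of the same male mouse (log axis above 0.5), with 1 point per mouse and lines at the mean. On average all 4 ligands lie near 1% in B cells, Cxcl16 there from 3 UMIs in all. Cxcl2 stands at a mean of 24.5% in neutrophils and Cxcl16 at 67.9% in cells with dendritic markers.

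The neutrophil level of Cxcl2 came from many cells, since the 10 highest of the 272 held 16.8% of its UMIs. It was lower in the 283 cells that met the neutrophil rule and carried Cd3d, at 708, 1417 and 1104 CPM, which did not overlap with the other neutrophils (no test was planned for this pair). The T cell rule is a raw count and so depends on depth. The median was 10153 UMIs in the 283 cells and 3635.5 in the 272, of which 30.9% also had a Cd3d UMI. The levels of neutrophils given above cover the 272 cells only. These 283 cells also had more Camp (33929 against 24996 CPM, pooled) and Ltf (9205 against 4269 CPM), which encode granule proteins of developing neutrophils, and less Il1b (193 against 1665 CPM) and Csf3r (105 against 381 CPM), the receptor of the neutrophil growth factor G-CSF. Their Cxcl1 was 36.9, 34.5 and 50.05 CPM. The 34 macrophage-rule cells with Cd3e were 1, 7 and 26 in mouse 1, 2 and 3. In them Cxcl2 was 14961, 28213 and 25456 CPM and Pf4 4708, 3130 and 3181 CPM, far above T cells for both genes.

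Other genes moved with Cxcl1 and Cxcl2. NF-kB and early inflammatory genes (12 genes, among them Il1a, Il1b, Tnf, Nfkbia, Nfkbiz and Ccl4) were higher in macrophages than in neutrophils in 8 of 12, in B cells in 11 of 12 and in T cells in 10 of 12, with median log2 fold changes of 1.03, 4.86 and 2.37 against medians of 0.13, 0.00 and -0.02 over all genes. Nfkbiz, an NF-kB co-regulator, followed the same order, with 813, 437, 69.9 and 125 CPM on average in macrophages, neutrophils, B cells and T cells, although its difference from neutrophils did not pass (log2 fold change 0.55, SE 0.24, edgeR adjusted p = 0.0584). Immediate early genes, which enzymatic digestion of tissue can induce (10 genes, among them Fos, Jun, Atf3 and Egr1), summed to 11058 to 17528 CPM in macrophages and to 2878 to 3731 in neutrophils, 1464 to 2119 in B cells and 2529 to 4724 in T cells. Of these, 9 of 10, 10 of 10 and 10 of 10 were higher in macrophages, where 32.5%, 30.4% and 24.3% of all genes were, and their median log2 fold changes were 2.69, 4.15 and 3.15 against 0.13, 0.00 and -0.02 over all genes. From macrophage to macrophage, their sum correlated with Cxcl2 at a Spearman rho of 0.11 and with Cxcl1 at -0.037 (1442 cells, as shares of each cell's UMIs), and the part of the digestion in the levels of the ligands was not tested.

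Within macrophages, Cxcl1 and Cxcl2 went together from cell to cell. The Spearman rho of their shares of UMIs was 0.67 over 1442 cells (0.74, 0.67 and 0.64 in mouse 1, 2 and 3), whereas Cxcl1 and Pf4 reached 0.32, Cxcl2 and Pf4 0.24 and Cxcl14 and Pf4 -0.15. These cells share 1 lane and the correlations are descriptions. Both genes were spread over most macrophages, and the 10 highest cells held 3.41% of the Cxcl1 UMIs and 2.73% of the Cxcl2 UMIs.

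Pf4 was 2610, 3104 and 2611 CPM in macrophages (2775 ± 285, SD, n = 3) and was found in 95.01% of them. In neutrophils it was 23.9, 35.5 and 33.9 CPM, in B cells 35.5, 30.9 and 34.5, in T cells 18.2, 48.9 and 47.7 and in cells with monocyte markers 25.95, 34.6 and 25.1. The non-macrophage groups were thus alike within their spread, and in cells with dendritic markers (11.4, 19.8 and 59.4 CPM) 28 of the 53 UMIs came from 1 cell. The log2 fold change was 6.09 against neutrophils (SE 0.24, edgeR adjusted p = 7.6e-14), 6.94 against B cells (SE 0.25, edgeR adjusted p = 1.04e-13) and 6.68 against T cells (SE 0.27, edgeR adjusted p = 1.64e-12). Platelet genes (Ppbp, Gp9, Gp1bb and Itga2b) summed to 2.43, 3.42 and 1.47 CPM in macrophages, and the part of platelets in the level of Pf4 was not tested.

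Cxcl16 was 348, 331 and 369 CPM in macrophages (349 ± 18.8, SD, n = 3) with a UMI in 89.1% of cells. Cells with dendritic markers had 156, 281 and 273 CPM (237 ± 69.7), lower than macrophages in each mouse, with a UMI in 71.8% (62.1 to 80.3). Cells with monocyte markers had 21.6, 19.2 and 17.9 CPM. Neutrophils (0, 3.55 and 5.47 CPM), B cells (3.94, 0 and 5.31 CPM) and T cells (0, 0 and 19.1 CPM) held 6, 3 and 4 UMIs in all. The log2 fold change of macrophages was 6.16 against neutrophils (SE 0.39, edgeR adjusted p = 7.17e-11), 7.07 against B cells (SE 0.43, edgeR adjusted p = 7.35e-11) and 5.68 against T cells (SE 0.45, edgeR adjusted p = 4.42e-09), and the dendritic group was not part of a test. None of the 29 cells with NK markers had a UMI, which, taken as 3 counts, allows a share of cells with a UMI of up to 10.3%. Of the 2 genes of CXCL16 release tested, 1 was higher in macrophages than in B cells and T cells, where 30.4% and 24.3% of all genes were. This was Adam17, the main sheddase of many membrane proteins. Its log2 fold change was 3.68 against B cells (edgeR adjusted p = 3.78e-08) and 1.62 against T cells (edgeR adjusted p = 3.70e-04). Neither gene passed against neutrophils (Adam17 0.23, edgeR adjusted p = 0.363).

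Cxcl14 was a low transcript of macrophages, at 41.9, 29.2 and 58.2 CPM (617 UMIs, in 22.1% of cells, at most 13 in a cell). Neutrophils had 2 UMIs, cells with dendritic markers 7 and cells with monocyte markers 4, and B cells, T cells and cells with NK markers none. The limit of a count of 0, taken as 3 counts over the group, put macrophages at least 12.6-fold higher than B cells and at least 6.93-fold higher than T cells. Against neutrophils the pooled ratio was 38.4 (95% counting interval 10.6 to 318).

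Cxcl10 was 55.3, 154 and 183 CPM in macrophages (131 ± 66.8, SD, n = 3). Of its 2046 UMIs, 41.3% lay in the 10 highest of the 1442 cells, and 15.1% of macrophages had any. Neutrophils had 11.95, 7.11 and 4.38 CPM and B cells 3.94, 0 and 5.31 CPM, below every mouse's macrophages, with log2 fold changes of 3.89 (SE 0.80, edgeR adjusted p = 3.29e-04) and 5.69 (SE 1.04, edgeR adjusted p = 1.06e-04). T cells had 12.1, 326 and 0 CPM, because 20 of their 22 UMIs were in 1 cell of mouse 2, and the difference from macrophages did not pass (log2 fold change 1.74, SE 0.74, edgeR adjusted p = 0.0624). Without mouse 2 it was 5.00 (edgeR adjusted p = 0.00101), with the mouse as a block 1.58 (edgeR adjusted p = 0.0380), and over all alternatives the adjusted p ran from 4.10e-08 to 0.693. Cells with monocyte markers (84.3, 50.04 and 158 CPM) overlapped with macrophages, with 122 of their 228 UMIs in 1 cell, and cells with dendritic markers had 22.7, 28.4 and 29.7 CPM.

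Cxcl9 and Cxcl13 were transcripts of single cells. Cxcl9 had 114 UMIs in 12 of the 1442 macrophages (0.832%), of which 9 were from mouse 3, giving 0.607, 0.526 and 14.8 CPM. Outside macrophages, 1 cell with monocyte markers had 99 UMIs and another 34, the latter with 122 Cxcl10 UMIs. Neutrophils, B cells and T cells had none, which, taken as 3 counts, allows shares of cells with a UMI of up to 1.10%, 1.86% and 3.95% and does not limit the cells that express the gene. Cxcl13 had 223 UMIs in 9 macrophages, of which 8 were from mouse 3, at 0, 0.789 and 29.3 CPM, and 108 of the UMIs were in 1 cell and 70 in another. In the female mice, too, Cxcl13 came from few cells of 1 mouse (105 UMIs in 3 macrophages of mouse 3), and Cxcl9 from 2 macrophages of that mouse (8 UMIs).

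Macrophages were next divided by UMIs of Fcrls, an Fc receptor-like gene of resident macrophages and microglia, and Ccr2, the receptor for the monocyte attractant Ccl2. Of the 1442 cells, 655 had Fcrls only (77, 260 and 318 in mouse 1, 2 and 3), 154 Ccr2 only (24, 47 and 83), 567 both and 66 neither, at median depths of 8466, 8024.5, 9041 and 6943.5 UMIs. Pf4 and Cxcl1 were higher in Fcrls-only than in Ccr2-only macrophages and Cxcl14 was lower, which is 2 and 1 of the 6 ligands tested. Of all 6405 genes, 7.53% were called, 3.17% higher and 4.36% lower.

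Pf4 was 3487, 4076 and 3411 CPM in Fcrls-only and 1465, 1028 and 947 CPM in Ccr2-only macrophages, with a log2 fold change of 1.58 (SE 0.17, edgeR adjusted p = 5.01e-06). Cells with both transcripts lay between, at 2126, 2433 and 2331 CPM, with no overlap among the 3 classes. At equal depth Pf4 was found in 96.6% of Fcrls-only and 56.0% of Ccr2-only macrophages (47.7 to 64.1). The female mice gave the same order without overlap, with 3967, 4277 and 3783 CPM against 974, 970 and 1075 CPM (log2 fold change 1.95).

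Cxcl14 ran the other way. It was 14.6, 17.5 and 42.5 CPM in Fcrls-only and 122, 85.7 and 88.5 CPM in Ccr2-only macrophages (175 and 117 UMIs), and the log2 fold change was -1.84 (SE 0.33, edgeR adjusted p = 0.00106). Cells with both had 45.1, 30.6 and 64.7 CPM, between the other classes in each mouse. At equal depth 4.35% of Fcrls-only (2.91 to 6.22) and 14.7% of Ccr2-only macrophages (9.43 to 21.4) had a UMI. In the female mice the values were 16.8, 12.5 and 11.1 CPM against 36.4, 233 and 77.3 CPM (log2 fold change -3.03). Fibroblasts, another known source of Cxcl14, had markers at 58.5, 163 and 148 CPM in Fcrls-only and at 31.7, 57.1 and 55.3 CPM in Ccr2-only macrophages, and their part in the level of Cxcl14 was not tested.

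Cxcl1 was 6607, 5994 and 6066 CPM in Fcrls-only and 4606, 3435 and 4130 CPM in Ccr2-only macrophages, without overlap, and its log2 fold change of 0.51 (SE 0.15, edgeR adjusted p = 0.0388) was near the threshold. It did not pass with DESeq2 (adjusted p = 0.0964), without mouse 2 (edgeR adjusted p = 0.344) or with macrophages defined at 1% C1q UMIs (edgeR adjusted p = 0.227), and the adjusted p over all alternatives ran from 1.65e-04 to 0.344. The female values were 7898, 5929 and 6442 against 3963, 1361 and 2118 CPM (log2 fold change 1.38). The gene Cxcl3, a close relative of Cxcl2, was also higher in Fcrls-only macrophages (89.5 against 42.2 CPM on average, log2 fold change 1.43, edgeR adjusted p = 0.0463). Of the immediate early genes, 5 of 10 were higher in Fcrls-only macrophages (Fos, Fosb, Jun, Atf3 and Rhob, median log2 fold change of the list 0.74 against 0.01 over all genes), and their part in the difference in Cxcl1 was not tested. Of the 12 NF-kB and early inflammatory genes none was higher and Tnf was lower (131 against 293 CPM on average, log2 fold change -1.28, edgeR adjusted p = 3.88e-05), with a list median of -0.12. Of all genes tested, 3.17% were higher and 4.36% lower.

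For the other ligands the difference did not pass. Cxcl2 was 22614, 20734 and 19870 CPM in Fcrls-only and 18003, 15906 and 17921 CPM in Ccr2-only macrophages (log2 fold change 0.18, SE 0.12, edgeR adjusted p = 0.481). Cxcl16 was 316, 311 and 352 against 386, 351 and 407 CPM (log2 fold change -0.34, SE 0.17, edgeR adjusted p = 0.273), and Cxcl10 73.1, 231 and 161 against 5.29, 34.3 and 144 CPM (log2 fold change 0.88, SE 0.68, edgeR adjusted p = 0.558). For Cxcl2, then, the classes differed in each mouse's CPM but not beyond the error of the fit. Without mouse 3 the log2 fold change of Cxcl10 was 2.68 (edgeR adjusted p = 0.00913, range over alternatives 9.27e-05 to 0.966). TMM scaling moved all log2 fold changes of this comparison by -0.11 relative to plain CPM.

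**Figure D3:**
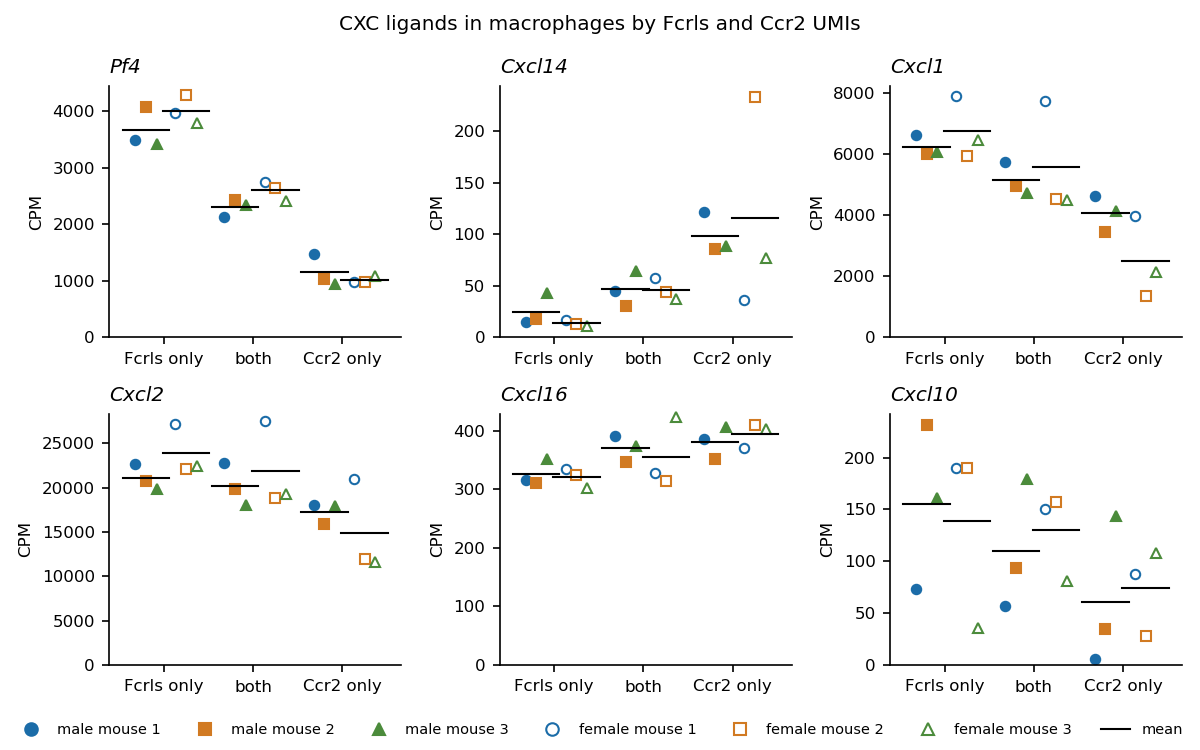
CPM of 6 ligands in macrophages with UMIs of Fcrls only, of both genes and of Ccr2 only, with filled points for the 3 male and open points for the 3 female mice and lines at the mean of 3 mice. Pf4 falls from 3658 over 2297 to 1147 CPM on average across the male classes, and Cxcl14 rises from 24.9 over 46.8 to 98.6 CPM.

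Macrophages were also divided by interferon-stimulated genes. With at least 0.15% of UMIs in Ifit1, Ifit2, Ifit3, Isg15 and Rsad2, 50 macrophages were interferon-high (2, 10 and 38 in mouse 1, 2 and 3) and 1392 were not, with 7 cells between the threshold and 0.2% and 14 between 0.1% and the threshold. Cxcl10 was the only one of the 6 ligands tested to be called, where 4.49% of 6634 genes were called, 3.99% higher and 0.497% lower. It was 0, 2878 and 2728 CPM in interferon-high and 55.8, 100 and 58.6 CPM in other macrophages, so that mouse 1, with 2 such cells, went against mouse 2 and 3. The 2 cells of mouse 1 lay just over the threshold (0.165% and 0.185%). In mouse 2, 140 of the 210 Cxcl10 UMIs of the interferon-high cells were in 1 cell. The log2 fold change was 4.92 (SE 0.34, edgeR adjusted p = 3.79e-45, DESeq2 adjusted p = 0.00763, the highest over all alternatives, and 8.52e-70 the lowest). The edgeR fit pooled its estimate of spread across genes. Its p-value therefore does not measure the spread of Cxcl10 between mice (SD 1620 CPM in interferon-high macrophages). The log2 fold change was 4.40 without mouse 3, which gave 38 of the 50 cells. That value rested largely on the 1 cell of mouse 2. The number of all genes called fell from 298 to 47 without mouse 3 and to 139 with the mouse as a block. At equal depth, 56.0% of interferon-high cells (41.3 to 70.0) and 5.95% of the others had a Cxcl10 UMI.

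Cxcl9 did not pass the filter, and 71 of its 114 macrophage UMIs (62.3%) lay in 6 interferon-high cells. All 6 were from mouse 3, and 33 of the 71 UMIs were in 1 cell just over the threshold (0.184%) with 1 Cxcl10 UMI. The 37 UMIs of the highest macrophage were in a cell below the threshold. The other ligands tested were not called in the male mice, with log2 fold changes of -0.10 for Cxcl1 (SE 0.36, edgeR adjusted p = 0.951), -0.26 for Cxcl2 (SE 0.39, edgeR adjusted p = 0.873), 0.17 for Cxcl16 (SE 0.26, edgeR adjusted p = 0.882), 0.22 for Cxcl14 (SE 0.38, edgeR adjusted p = 0.902) and -0.46 for Pf4 (SE 0.34, edgeR adjusted p = 0.680). None of these 5 passed the test, with standard errors of 0.26 to 0.39. In the female mice, with 8 interferon-high cells, Cxcl1 (log2 fold change -0.97) and Pf4 (-1.26) passed as lower. On simulated data, this comparison in male mice recovered 6% of changes of 1 log2 unit, so changes of that size can be missed. Of 14 other genes of the interferon pathway, 6 were higher in the male interferon-high cells, Stat2, Irf7, Gbp5, Ifi44 and Usp18 among them (median log2 fold change 0.58 against -0.09 over all genes). Irf7, a transcription factor of the interferon response, was at 706 against 63.1 CPM (log2 fold change 3.35, edgeR adjusted p = 3.66e-47). The limit given for the p-value of Cxcl10 applies to Irf7 too.

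Much of the Cxcl10 lay outside the interferon-high cells, however. These held 56.8% of the macrophage UMIs of Cxcl10, with 3.37% of all macrophage UMIs. Of the 46 macrophages with 10 or more Cxcl10 UMIs, 21 were interferon-high (0, 4 and 17 in mouse 1, 2 and 3) and 25 were not (2, 10 and 13), and 16 of the 25 had no UMI of the 5 interferon genes. The highest of the 25 had 0.0680% of its UMIs in these genes. They were set beside the 1208 macrophages that had no Cxcl10 UMI and were also under the interferon threshold. These 25 cells had pooled levels of Irf7 (64.7 CPM), Ifi44 (53.3), Usp18 (15.2) and Gbp2 (3.81) near those of the 1208 cells (72.9, 74.5, 21.5 and 5.76 CPM), whereas the 21 interferon-high cells had 764, 1151, 764 and 220 CPM. The 25 and the 21 cells carried more Ccl2 (1223 and 2292 CPM) than the 1208 (794 CPM). Among their other CXC ligands, Cxcl1 was lower, at 3298 and 3637 CPM (5438 in the 1208 cells). So were Cxcl2, at 16926 and 15828 CPM (19656), and Pf4, at 2038 and 1470 CPM (2823). Cxcl16, at 373 and 398 CPM (356), and Cxcl14, at 57.1 and 57.6 CPM (47.3), were slightly higher. Cxcl9 was 0 in the 25 cells and 162 CPM in the 21 (3.87), and Cxcl13 was 0 in both (19.7). These sets were formed from Cxcl10 itself, from the interferon threshold and from cells of 3 mice, and no test was made.

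**Figure D4:**
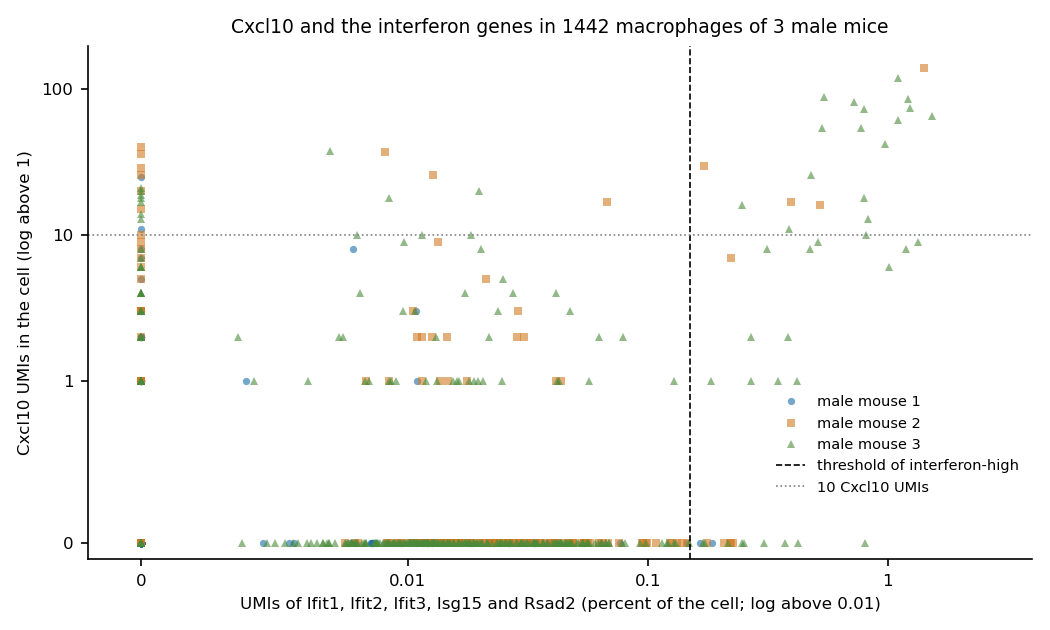
Cxcl10 UMIs of each of 1442 macrophages (log axis above 1) against the percent of the cell's UMIs in the 5 interferon genes (log axis above 0.01), with symbols by male mouse, a dashed line at the threshold of 0.15% and a dotted line at 10 UMIs. Of the 46 cells on or above the dotted line, 21 lie right of the dashed line and 25 left of it, 16 of them at 0%.

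In the female mice, 8 macrophages were interferon-high. Their Cxcl10 was 125, 2345 and 1868 CPM against 160, 124 and 44.1 CPM in the others (log2 fold change 3.29), and they held 13.4% of the macrophage Cxcl10 UMIs. Of 16 macrophages with 10 or more Cxcl10 UMIs, 3 were interferon-high and 8 had no UMI of the interferon genes. Female mouse 1, like male mouse 1, had no rise of Cxcl10 in its interferon-high cells, of which there were 3. These 3 cells were shallow, with a median of 693 UMIs and 8030 in all, and held 1 Cxcl10 UMI. The difference between the sexes in this log2 fold change was 1.76 and did not pass the adjustment (edgeR adjusted p = 0.368).

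**Figure D5:**
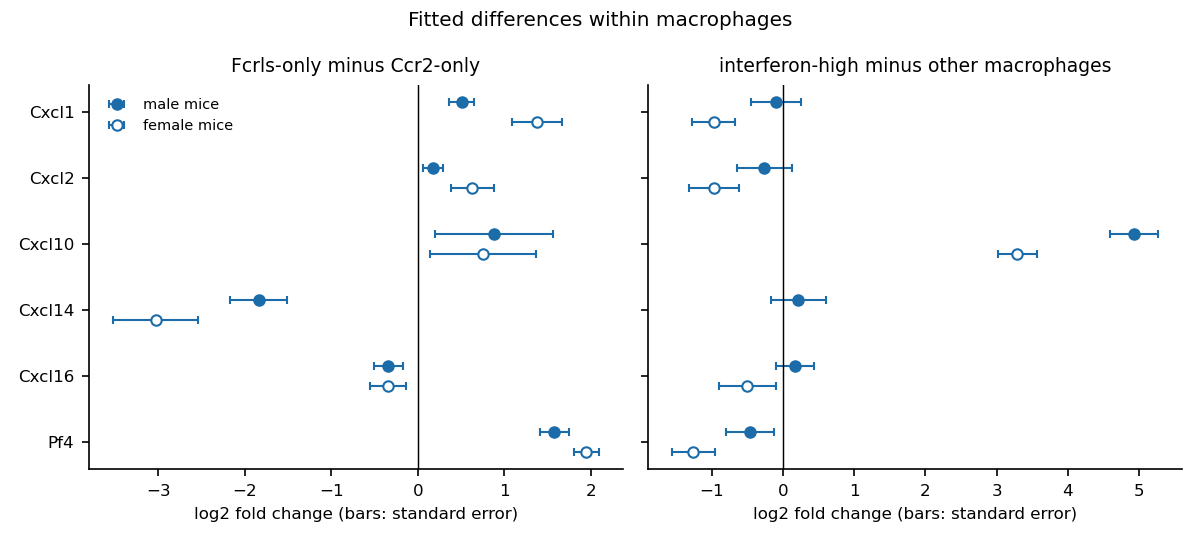
Fitted log2 fold changes with standard errors (bars) for the 2 divisions of macrophages, with filled points for male and open points for female mice. Cxcl14 in the interferon division of the female mice is left out because all 3 interferon-high sums were at 0. Pf4 and Cxcl14 depart from 0 in opposite directions on the left, and on the right Cxcl10 stands at 4.92 in male and 3.29 in female mice.

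Levels in all macrophages were compared between the 3 male and the 3 female mice, and none of the 6 ligands tested was called, where 0.0869% of 8057 genes were (7 genes, 0.0372% higher and 0.0496% lower in male mice, and 458 at an unadjusted p under 0.05). Female macrophages had 7401, 4934 and 5375 CPM of Cxcl1, 26841, 19490 and 20317 of Cxcl2, 3112, 3195 and 3067 of Pf4 and 334, 337 and 348 of Cxcl16. The log2 fold change of male over female macrophages lay between -0.18 for Pf4 (SE 0.09, edgeR adjusted p = 0.885) and 0.29 for Cxcl14 (SE 0.24, edgeR adjusted p = 0.955). Male and female mice overlapped for all 6 ligands, for Pf4 through male mouse 2 (3104 CPM) alone.

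Receptors of Cxcl1 and Cxcl2, of Cxcl9 and Cxcl10 and of Cxcl16 were higher in neutrophils or T cells than in macrophages. A receptor near 0 in macrophages, as Cxcr2, Cxcr3 and Cxcr6 were, could pass the filter on low counts only through another cell type. Its direction was thereby fixed, so the p-values and counts of receptors given here are a description. Cxcr2, the receptor of Cxcl1 and Cxcl2, was 284, 298 and 338 CPM in neutrophils and 0, 1.58 and 0.799 CPM in macrophages (log2 fold change -8.62, SE 0.30, edgeR adjusted p = 2.08e-13). Cxcr3, the receptor of Cxcl9 and Cxcl10, was 72.6, 212 and 124 CPM in T cells and 2.65 on average in macrophages (log2 fold change -4.89, SE 0.46, edgeR adjusted p = 1.24e-07). Cxcr6, the receptor of Cxcl16, was 260, 847 and 644 CPM in T cells and 0.715 on average in macrophages (log2 fold change -9.16, SE 0.48, edgeR adjusted p = 6.14e-10). Neutrophils thus carried Cxcr2 and also Cxcl2, and T cells carried the receptors of Cxcl10 and Cxcl16. Cells with NK markers had Cxcr3 at 133, 187 and 69.4 CPM and Cxcr6 at 266, 359 and 208 CPM. Cxcr5, the receptor of Cxcl13, had 19 UMIs in B cells and 1 in macrophages. Of the 4 receptors tested, 2 were lower in macrophages than in neutrophils, 1 than in B cells and 3 than in T cells (27.8%, 27.6% and 20.6% of all genes were lower), Cxcr4, the receptor of Cxcl12, among them each time (43.8 CPM on average in macrophages, 160 in neutrophils, 321 in B cells and 132 in T cells). The median log2 fold change of the 4 was -0.23 against neutrophils, 1.52 against B cells and -3.11 against T cells, where those of all genes were 0.13, 0.00 and -0.02.

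The 15 interferon pathway genes (receptors, kinases, transcription factors and targets such as Usp18) were also higher in macrophages than in neutrophils in 5 of the 10 tested (2 lower), than in B cells in 9 of 10 (0 lower) and than in T cells in 5 of 10 (3 lower), with median log2 fold changes of 0.57, 1.74 and 1.27 against 0.13, 0.00 and -0.02 over all genes. Of all genes, 32.5%, 30.4% and 24.3% were higher and 27.8%, 27.6% and 20.6% lower. Between Fcrls-only and Ccr2-only macrophages none of 13 was called (median 0.05), where 7.53% of all genes were. In interferon-high macrophages none of the 12 NF-kB genes (median 0.07) and none of the 10 immediate early genes (median 0.19) was called, where 4.49% of all genes were.

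Other CXC ligands were at low levels. Cxcl3 was 106, 67.3 and 63.3 CPM in macrophages and 62.2, 17.8 and 85.3 CPM in neutrophils, which overlapped (log2 fold change -0.11, SE 0.31, edgeR adjusted p = 0.784), and was higher in macrophages than in B cells (4.88, edgeR adjusted p = 6.53e-06) and T cells (5.42, edgeR adjusted p = 1.82e-04). Macrophages had 70 UMIs of Cxcl12, a ligand of Cxcr4, 15 of Ppbp and 3 of Cxcl5. Cxcl3 was thus, like Cxcl2, a transcript of macrophages and neutrophils. The part of sequence shared between Cxcl2 and other CXC ligands in these counts was not tested.

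For each ligand, the genes with the most similar pattern were sought over 27 sums (interferon-high macrophages, the 4 Fcrls and Ccr2 classes of the others, neutrophils, B cells, T cells and cells of no rule, in 3 mice, Pearson correlation of log2(CPM + 1), 5193 genes), as a description, since sums of 1 group resemble each other. Cxcl1 was closest to Csf1r (r = 0.99), Hpgd (0.99) and Apoe (0.98), and Cxcl2 to Nfkbiz (0.98), Dusp1 (0.96) and Timp2 (0.96). Pf4 was closest to C1qa, C1qc and C1qb (0.98 each), which also define the macrophage rule. Cxcl16 was closest to Pid1 (0.98), Cst3 (0.97) and Fcgrt (0.97), and among the genes closest to Cxcl14 were Col14a1 (0.96) and Axl (0.94). Cxcl10 was closest to Ifi211 (0.78), Fam234a (0.78) and Trim30a (0.73), of which Ifi211 and Trim30a are interferon-stimulated. Cxcl9 (Chmp4b, Trim30a and Ccl11, 0.54 to 0.63) and Cxcl13 (Ccl8, Ccl7 and H3f3b, 0.44 to 0.50) had no gene above 0.63, at 10.6 and 2.74 CPM on average over these sums.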

How the data were processed

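Raw UMI counts were deposited for 1 lane in 2 matrices, which the authors made with Cell Ranger (3.1.0 in the file header) on mm10 and, per the submitters' processing notes, Seurat. The smaller holds 2668 cells and 16819 symbols, the larger 4395 barcodes with counts of 6 hashtag antibodies. All 2668 barcodes recurred in the larger matrix, and 0 entries differed. Sex and mouse of each cell were assigned with HTODemux (Seurat 5.3.0, quantile 0.99) and the filters of the study (over 200 and under 5000 genes, under 5% mitochondrial UMIs), which gave 2668 male cells, identical to the deposited ones, and 1073 female cells. This step removed 269 doublets. Scrublet marked 11 of 3741 remaining cells (0.294%), a share at which it cannot be taken to have worked. Male mice held 4239463, 5656097 and 13508078 UMIs and female mice 2272347 to 2959158.

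UMIs were summed per mouse and cell group and tested with edgeR 4.0.16 (quasi-likelihood, TMM, filterByExpr, adjusted p at most 0.05) in R 4.3.3. Genes of the grouping rules were left out of the tests but kept in library sizes. Alternatives were DESeq2 1.42.0 and its size factors, no filter, each mouse left out, the mouse as a block, female mice, thinning, other thresholds and, added after the data were seen, the first rule met and an interaction with sex. Samples of 1 number come from 1 animal, and their deviations from group means correlated at -0.046 to 0.19. Each p-value rests on 3 mice a group, with an estimate of spread that edgeR pools across genes. It therefore does not measure the spread of a single gene between these mice alone. The test was also run on simulated data with 200 changed genes and the same spread for every gene. There edgeR recovered 92% of changes of 2 log2 units against neutrophils (4524 genes) and 62% between interferon-high and other macrophages (6702 genes). Of changes of 1 log2 unit it recovered 38% and 6% in these comparisons and 18% between Fcrls-only and Ccr2-only macrophages. Named were the 8 ligands, the 3 most alike genes of each (mean of at least 20 CPM) and members of 6 gene lists. Some of these genes are not reported here. The ligands and lists were chosen with earlier results of these data known. Promoter sequences are from RefSeq (GRCm38.p6).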

Additional observations from a re-analysis of the deposited data

How the results depend on the processing

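The direction and the call of each of the 5 ligands tested against neutrophils, B cells and T cells held under all alternatives, except for Cxcl10 against T cells, which passed without the filter (1.93), without mouse 2 (5.00), at the 1% threshold (1.84), without Scrublet doublets (1.79) and with the first rule met (1.83). Numbers of genes called moved most. Without a filter there were 5375 against neutrophils, 4797 against B cells and 98 between the sexes. In female mice there were 1555, 1585 and 1188 against neutrophils, B cells and T cells and 252 between Fcrls-only and Ccr2-only macrophages. Thinned to 2000 UMIs there were 1928, 1514, 1107, 177 and, for interferon-high macrophages, 121. With each mouse left out there were 209 to 276 for Fcrls-only against Ccr2-only macrophages (482 with all), 47 to 268 for interferon-high macrophages (47 without mouse 3) and 5 to 74 between the sexes (74 without male mouse 2, 11 without female mouse 2). DESeq2 gave 152 for interferon-high macrophages. The cause of these shifts was not tested.

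With the mouse as a block, which pairs sums of the same animal, 139 genes were called in interferon-high macrophages, Cxcl10 passed against T cells (1.58), and Cxcl14 (-0.034) and Cxcl16 (-0.0028) changed sign. The block changed no other call of a ligand. In the same comparison, Cxcl1 (-0.57 to 0.050 with each mouse left out, positive without mouse 1), Cxcl14 (-0.81 to 0.21, negative without mouse 3, and -7.76 in female mice, whose 3 interferon-high sums were at 0) and Cxcl16 (-0.48 to 0.29, negative without mouse 3, and -0.50 in female mice) changed sign, and Cxcl1 (-0.97) and Pf4 (-1.26) passed in female mice only. Between the sexes, Cxcl10 changed sign without male mouse 2 (-0.015), male mouse 3 (-0.18) or female mouse 3 (-0.25, and 0.39 at most) and with the first rule met (-0.052), Cxcl14 without male mouse 3 (-0.053, and 0.53 at most), and Cxcl1 (0.10, and -0.24 at least) and Cxcl2 (0.041, and -0.24 at least) without female mouse 1. None of the sign changes passed the test. Depth limits Cxcl9, Cxcl13 and Cxcl14 outside macrophages.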
